A study of Mus musculus with 6 samples.

Results

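A probe set on an array is a set of short DNA probes meant to read 1 stretch of RNA, and some stretches belong to more than 1 gene. The results below concern the probe sets for which the platform annotation named 2 or more gene symbols. They were 4475 of the 234873 probe sets on the array (1.91%), chosen from the annotation alone and not from measured values. Probe sets that named the same set of symbols were put together, which gave 1527 groups naming 2623 symbols. Each group is called by its symbols joined with a slash, as in Cyp2a4/Cyp2a5, because its signal cannot be assigned to 1 of them.

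The arrays read RNA of primary hepatocytes from adult C57BL/6 mice. In 3 mice, called miR-143DOX, a doxycycline-inducible miR-143 allele was carried as a transgene, and 3 wildtype littermates were the controls. Every animal of both groups drank doxycycline at 4 mg/ml in 10% sucrose for 8 days, so the controls had the drug without the transgene. What promoter drives the allele is not stated in the labels. Each mouse had 1 array, and no sex or exact age is given in the labels. The groups contrast hepatocytes with and without induction of miR-143, a microRNA that lowers the output of transcripts it pairs with. Correlations between arrays ran from 0.936 to 0.954, and array medians lay within 0.0665 of each other on the log2 scale. All 8 hepatocyte markers on the list checked (such as Alb and Apoa1) were measured, with a mean log2 level of 13.18 to 13.20 in miR-143DOX and 13.09 to 13.23 in control. The 6 markers of sinusoidal endothelium, another cell type of the liver, were all above the limit of levels used below. They were lower in miR-143DOX by a median difference of -0.15, at a list mean of 7.50 to 7.96 against 7.79 to 7.95, with 1 of the 6 at an unadjusted p under 0.05, and their part in the results was not tested.

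Genes come to share probe sets in several ways. Duplication leaves gene copies whose transcripts are nearly identical, as in the cytochrome P450, serum amyloid, heat shock and histone genes of the liver. Spliced transcripts copied back into the genome leave processed pseudogenes, which are common for ribosomal protein genes. Neighbouring genes can also overlap at their ends, and small RNA genes often lie inside the introns of a host gene. In the first of these cases the probes read a sum over gene copies.

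The likeness of some copies reaches beyond the transcript into the promoter. Promoters are taken from RefSeq on build GRCm38.p6 and are shown as the 250 bases just before each gene's start. They show 3 pairs of liver genes whose shared probe sets are described below, with the bases that differ between the copies in capitals. The first pair is Cyp2a4 and Cyp2a5, which are 97.6% identical with 6 differences.

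Cyp2a4 (chr7:26306942-26307191, strand +): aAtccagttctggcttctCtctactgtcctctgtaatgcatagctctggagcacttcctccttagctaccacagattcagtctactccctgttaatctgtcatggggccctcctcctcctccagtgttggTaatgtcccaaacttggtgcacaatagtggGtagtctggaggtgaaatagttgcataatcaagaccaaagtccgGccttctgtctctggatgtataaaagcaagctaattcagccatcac
Cyp2a5 (chr7:26835089-26835338, strand +): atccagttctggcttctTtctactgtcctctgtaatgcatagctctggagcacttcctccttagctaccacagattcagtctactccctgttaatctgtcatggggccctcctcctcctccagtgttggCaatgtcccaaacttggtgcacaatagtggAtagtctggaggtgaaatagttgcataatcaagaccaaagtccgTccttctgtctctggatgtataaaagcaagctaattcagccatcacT

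Both copies hold the letters TATAAA, the TATA box, once each, read on both strands. That motif was in 12.4% of all 32851 RefSeq promoter windows of the same length. The heat shock genes Hspa1a and Hspa1b were 98.8% identical, with 3 differences.

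Hspa1a (chr17:34972157-34972406, strand -): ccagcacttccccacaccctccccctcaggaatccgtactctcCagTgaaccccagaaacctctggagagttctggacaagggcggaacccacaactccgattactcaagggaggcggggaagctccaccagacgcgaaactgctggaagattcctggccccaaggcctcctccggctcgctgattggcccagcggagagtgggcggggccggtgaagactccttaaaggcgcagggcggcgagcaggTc
Hspa1b (chr17:34959239-34959488, strand -): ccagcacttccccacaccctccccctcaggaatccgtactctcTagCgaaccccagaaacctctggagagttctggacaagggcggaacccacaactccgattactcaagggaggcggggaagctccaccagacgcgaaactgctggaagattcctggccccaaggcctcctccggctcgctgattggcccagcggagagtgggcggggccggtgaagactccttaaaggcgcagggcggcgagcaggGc

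Each of these held the heat shock element half-site pair GAANNTTC once, a motif that reads the same on both strands and that lay in 6.69% of the 32851 windows. The serum amyloid genes Saa1 and Saa2 lie head to head, and their promoters were 94.8% identical with 13 differences.

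Saa1 (chr7:46742981-46743230, strand -): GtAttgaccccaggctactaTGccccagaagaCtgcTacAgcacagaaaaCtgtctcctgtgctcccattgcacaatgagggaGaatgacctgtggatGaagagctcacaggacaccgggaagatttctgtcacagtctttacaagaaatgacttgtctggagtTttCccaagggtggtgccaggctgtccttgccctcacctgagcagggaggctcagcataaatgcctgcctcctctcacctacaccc
Saa2 (chr7:46751583-46751832, strand +): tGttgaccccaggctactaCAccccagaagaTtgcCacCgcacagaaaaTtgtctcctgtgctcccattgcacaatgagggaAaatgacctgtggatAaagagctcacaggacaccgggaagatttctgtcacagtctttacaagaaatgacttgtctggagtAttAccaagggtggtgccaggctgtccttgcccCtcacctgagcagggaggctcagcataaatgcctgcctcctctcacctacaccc

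Such likeness was not general. For 686 groups at least 2 promoters were found in RefSeq, and the median identity of a group's most similar pair was 54.4%. In groups of 1 name stem, such as the P450 genes, the median was 78.4% over 213 groups, and 67 had a pair at 90% identity or more. In groups of different names it was 45.6% over 175 groups, of which 6 reached 90%. Groups with at least 1 predicted or clone-style name had a median of 80.2% over 298 groups, and 118 reached 90%. Where the genes lay farther than 1 Mb apart on 1 chromosome, the median was 95.6% over 123 groups, and 75 reached 90%. Groups with more symbols offer more pairs from which the most similar is taken, and these medians were not adjusted for that. The identity of unrelated promoters was not computed, so the low values have no baseline here. Hsd3b4 and Hsd3b5, steroid dehydrogenases that share 7 probe sets, had promoters only 45.2% identical.

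Most groups were small. Of the 1527, 997 named 2 symbols, 204 named 3, 96 named 4 and 230 named 5 or more, up to 17. A single probe set made up 796 groups, while 78 groups held 10 or more, up to 45. By name, 366 groups held symbols of 1 name stem, 316 held different names, 839 held at least 1 predicted or clone-style name and 6 paired a small RNA gene with another gene (groups made only of small RNA genes are counted by name stem). By position, the genes of 365 groups overlapped, those of 583 lay on 1 chromosome within 1 Mb, those of 210 lay farther apart on 1 chromosome and those of 321 were on different chromosomes. For the other 48, fewer than 2 symbols could be placed. Of the symbols, 960 were named by shared probe sets only, so these arrays hold no other value for them.

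Many shared rows held the same numbers. Of the 4475 shared probe sets, 1090 (24.4%) had values identical in all 6 arrays to those of another probe set. The same was true of 1085 of 212097 probe sets with 1 symbol (0.512%) and of 1083 of 18301 with none (5.92%). The largest set of identical rows had 16 members, and 3817 distinct rows remained among the shared probe sets. A twin lay in the same group for 968 of the 1090. In 51 of the 731 groups with 2 or more probe sets, every row was the same. The number of probe sets in such a group is therefore not a number of separate measurements. The 45 probe sets of Amy2a1/Amy2a2/Amy2a5/Amy2b, genes of pancreatic amylase, held 15 distinct rows, and the 25 of Gm10639/Gsta1/Gsta2 held 13.

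For the comparison, a group's value on an array was the mean log2 signal of its probe sets. A log2 difference of 1 is a doubling, and differences are miR-143DOX minus control throughout. Groups in the lowest 25% of levels (below log2 5.03) were left out, together with genes measured by probe sets of 1 symbol, which were fitted in the same table. This left 1018 of the 1527 groups (66.7%) among 16457 features. No group passed a false discovery rate (FDR) of 5% in limma's test, and none of the 16457 features did, 0.0% in all. The smallest adjusted p of a group was 0.97. So no group is reported as changed, and the values below describe these 6 arrays.

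At an unadjusted p under 0.05 there were 67 of the 1018 groups (6.58%), against 3.06% of all features. Of the 67, 29 were higher in miR-143DOX and 38 lower. The groups' median difference was -0.0086, against 0.0080 over all features tested. In 83 of the 1018 groups all 3 arrays of one kind lay above all 3 of the other, compared with 7.19% of all features. Groups and genes differ in how many probe sets they average. With 1 probe set each, 34 of 491 groups (6.92%) and 42 of 949 genes (4.43%) were under 0.05. With 2 to 4 probe sets, 26 of 348 groups (7.47%) and 101 of 2667 genes (3.79%) were. With 5 or more, 7 of 179 groups (3.91%) and 294 of 11823 genes (2.49%) were. When every feature was read by its brightest probe set, 2.49% of groups and 3.00% of all features were. Tested probe set by probe set, 79 of 3028 shared ones (2.61%) were under 0.05, against 4.18% of all 176155. The higher share of groups under 0.05 thus held in each class of probe set number, but not with the brightest probe set or probe set by probe set.

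Groups of 1 name stem leaned to the lower side in number. Of 190 tested, 72 were higher and 118 lower, with a median of -0.05. An unadjusted p under 0.05 was found for 17 (8.95%), against 3.06% of all features. Groups with different names were 125 higher and 133 lower, and those with predicted names 290 higher and 275 lower. These balances moved with single arrays. Without miR-143DOX array 3 the groups of 1 name stem were 85 higher and 102 lower with a median of -0.02, those of different names 143 and 117, and those of predicted names 345 and 217. Without control array 3 the predicted names were 244 higher and 316 lower. Among overlapping genes 28 of 304 groups (9.21%) were under 0.05, and 15 of 303 (4.95%) with genes within 1 Mb. The count was 10 of 89 (11.2%) with genes farther apart on 1 chromosome and 12 of 288 (4.17%) with genes on different chromosomes. These shares by name and position were not repeated with the brightest probe set or probe set by probe set.

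The P450 enzymes of the liver oxidise drugs, steroids and fatty acids. Cyp2a4 and Cyp2a5, steroid and coumarin hydroxylases, were read by shared probe sets only. Cyp2a4/Cyp2a5 stood at log2 10.68, 11.23 and 11.52 in the miR-143DOX arrays and at 12.31, 11.48 and 11.60 in the control arrays. One miR-143DOX array reached into the control range, so the groups overlapped. The difference was -0.66 (standard error, SE, 0.25, 95% interval -1.21 to -0.11, unadjusted p = 0.0230, adjusted p = 0.9995). All 9 of its probe sets had a lower mean in miR-143DOX. Without control array 1 the difference was -0.40, and without miR-143DOX array 1 it was -0.43. The near-identical promoters printed above belong to these genes, and the arrays cannot tell which copy gave the signal.

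The Cyp3a genes, the main drug-metabolising P450 family, filled 8 groups with 39 probe sets, 29 of them distinct rows. All 8 were higher in miR-143DOX, with a median of 0.22, and 1 had an unadjusted p under 0.05, against 3.06% of all features. That group, Cyp3a11/Cyp3a41a/Cyp3a41b/Cyp3a44, stood at 8.70, 9.03 and 9.12 in miR-143DOX and at 8.12, 8.68 and 8.61 in control, without overlap. Its difference was 0.48 (SE 0.18, unadjusted p = 0.0226). In 6 of the other 7 groups control array 3 was the highest. Cyp3a16/Cyp3a41a/Cyp3a41b/Cyp3a44 stood at 8.05, 9.28 and 9.27 in miR-143DOX and at 6.44, 8.39 and 10.35 in control. The count of 8 rests on single arrays. Without control array 1, only 1 of 8 groups was higher and the median was -0.03, and without control array 2 or miR-143DOX array 2, 4 of 8 were. With the brightest probe set of each group 6 of 8 were higher.

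Cyp4a genes encode fatty acid hydroxylases, and their 3 groups were all higher, by a median of 0.30. Cyp4a10/Cyp4a31/Cyp4a32 stood at 11.17, 11.17 and 10.61 in miR-143DOX and at 10.91, 10.42 and 10.53 in control. The difference of 0.36 (SE 0.19, unadjusted p = 0.0844) was seen in all 9 probe sets. The genes' own probe sets gave 0.37 for Cyp4a10, 0.39 for Cyp4a31 and 0.16 for Cyp4a32. With miR-143DOX array 1 or 2 left out, 2 of the 3 groups were higher. The median of the 3 was 0.09 without control array 2 and 0.54 with arrays weighted by their quality. Cyp2c40/Cyp2c67/Cyp2c68/Cyp2c69 showed a difference of -0.12 (SE 0.15).

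Conjugating and other liver enzymes gave small differences. Ugt1a genes, glucuronosyltransferases that share their last exons, were read together by Ugt1a1/Ugt1a10/Ugt1a2/Ugt1a5/Ugt1a6a/Ugt1a6b/Ugt1a7c/Ugt1a9. It stood at 12.62, 12.56 and 12.76 in miR-143DOX and at 12.44, 12.74 and 12.79 in control, a difference of -0.0085 (SE 0.14). The genes' own probe sets ranged from -0.60 for Ugt1a10 to 0.06 for Ugt1a1. Gm10639/Gsta1/Gsta2, glutathione transferases, stood at 9.47, 9.26 and 8.62 in miR-143DOX and at 8.94, 8.91 and 8.63 in control, a difference of 0.29 (SE 0.21). Hsd3b4/Hsd3b5 showed -0.22 (SE 0.17) and Ces2/Ces5, carboxylesterases, -0.02 (SE 0.12).

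Secreted proteins were led by the serum amyloid genes, acute-phase apolipoproteins that the liver releases in inflammation. Saa1/Saa2 had 1 shared probe set, at 7.58, 6.42 and 7.06 in miR-143DOX and at 8.51, 7.25 and 8.21 in control. Its highest miR-143DOX array lay above its lowest control array. The difference was -0.97 (SE 0.33, 95% interval -1.70 to -0.24, unadjusted p = 0.0143, adjusted p = 0.9995). The 5 probe sets of Saa2 alone gave -0.68 (SE 0.18, unadjusted p = 0.00332), without overlap, while the 1 probe set of Saa1 alone gave 0.16 (SE 0.22).

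Serpina1 genes encode the copies of alpha-1-antitrypsin, a protease inhibitor of plasma. Serpina1a/Serpina1b/Serpina1c/Serpina1d/Serpina1e stood at 14.20, 14.32 and 14.24 in miR-143DOX and at 14.00, 14.29 and 14.35 in control, a difference of 0.04 (SE 0.14). Serpina1a/Serpina1b gave -0.35 (SE 0.17, unadjusted p = 0.0698), and the single probe set of Serpina1a alone gave -0.98 (SE 0.38). C4a/C4b, copies of complement component C4, stood at 11.23, 11.21 and 11.33 in miR-143DOX and at 11.35, 11.38 and 11.75 in control. These did not overlap, although the difference was only -0.24 (SE 0.15, unadjusted p = 0.133), and it was -0.11 without control array 3. The own probe sets of C4a gave -0.65 and those of C4b -0.21.

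Hspa1a and Hspa1b encode the inducible chaperone Hsp70, and Hspa1l is their relative of the testis. Hspa1a/Hspa1b/Hspa1l stood at 8.11, 8.09 and 7.97 in miR-143DOX and at 9.05, 8.39 and 9.57 in control. All miR-143DOX arrays lay below all control arrays. The difference was -0.95 (SE 0.24, 95% interval -1.48 to -0.42, unadjusted p = 0.00240, adjusted p = 0.9995). The separate probe set of Hspa1a alone gave -0.92 (SE 0.23), at 6.00, 5.96 and 6.14 against 6.71, 6.56 and 7.59, also without overlap. By contrast the probe set of Hspa1a/Hspa1b, at a mean level of 5.97, gave -0.05 (SE 0.20), with arrays overlapping. Hspa1l alone gave 0.25, at means of 4.89 in miR-143DOX and 4.63 in control. It lay below the limit of levels and was not tested. Hsp25-ps1/Hspb1, a small heat shock protein and its pseudogene, gave -0.22 (SE 0.23).

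Histone genes lie in large clusters of near-identical copies that supply chromatin during DNA replication. Of 23 Hist groups tested, 21 were lower in miR-143DOX, with a median of -0.10 and 4 at an unadjusted p under 0.05, against 3.06% of all features. All 4 were groups of Hist1h4 genes, which encode histone H4. Hist1h4a/Hist1h4b/Hist1h4c/Hist1h4f/Hist1h4h/Hist1h4m stood at 8.84, 8.64 and 8.63 in miR-143DOX and at 9.40, 8.92 and 9.003 in control, without overlap. Its difference was -0.40 (SE 0.16, unadjusted p = 0.0268), and the others ran from -0.36 to -0.41. These groups name most of the same genes and are not separate measurements. The H2A and H3 groups lay closer to 0. Hist1h2ad/Hist1h2af/Hist1h2ag/Hist1h2ah/Hist1h2ai/Hist1h2ak/Hist1h2an/Hist1h2ao gave -0.01 (SE 0.14) over 7 probe sets. The count of 21 moved with single arrays and their weights. Without control array 1, 10 of 23 groups were lower and the median was 0.02, and without miR-143DOX array 3, 11 were lower and the median was 0.00078. With arrays weighted by their quality 13 were lower and the median was -0.01.

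Ribosomal protein genes share probe sets with their many processed pseudogenes. Of 51 Rpl groups, 31 were higher and 20 lower, with a median of 0.05, and of 24 Rps groups 14 were higher, with a median of 0.04. None had an unadjusted p under 0.05. Without control array 3, 15 of the 51 and 4 of the 24 were higher, and without miR-143DOX array 1, 25 and 11. Gm16406/Rps6 stood at 11.83, 11.80 and 11.71 in miR-143DOX and at 11.83, 11.71 and 11.55 in control. Gm10164/Gm10268/Gm10362/Gm8062/Rpl17, whose genes had no probe set of their own, gave 0.03 (SE 0.13).

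Small nucleolar RNAs guide the modification of ribosomal RNA, and Rpl13a carries several in its introns. Rpl13a/Snord32a stood at 7.53, 7.76 and 7.98 in miR-143DOX and at 8.35, 8.10 and 8.57 in control. These values did not overlap, with a difference of -0.59 (SE 0.17, 95% interval -0.95 to -0.22, unadjusted p = 0.00481, adjusted p = 0.9995). The 6 probe sets of Rpl13a alone gave 0.06 (SE 0.17). Rpl13a/Snord34 gave -0.64 (SE 0.27, unadjusted p = 0.0389), with arrays overlapping. A further pair, Rpl12/Snora65, gave -0.34 (SE 0.15, unadjusted p = 0.0403). Of 8 groups that name a small RNA gene 7 were tested, and these are the 3 under 0.05, against 3.06% of all features. Rpl13a is named by 2 of the 3. Another 2 share Rnu7, the RNA that processes histone transcripts, and gave 0.06 for Grcc10/Rnu7 and -0.0047 for Atn1/Rnu7. The last 2 name small RNA genes only and gave -0.35 (SE 0.19, unadjusted p = 0.10) for Snord1b/Snord1c and -0.17 (SE 0.13, unadjusted p = 0.195) for Rnu1b1/Rnu1b6.

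Immune genes formed a further large share of duplicated families. The group with the smallest p, Gm10693/Gm15448/Lilrb3/Pira2/Pira3, reads paired immunoglobulin-like receptors of myeloid cells through 1 probe set. It stood at 5.71, 5.59 and 5.48 in miR-143DOX and at 5.06, 4.69 and 4.79 in control, near the lower limit of levels tested. The difference was 0.74 (SE 0.14, 95% interval 0.43 to 1.06, unadjusted p = 0.000329, adjusted p = 0.97). The own probe sets of Pira2 gave 0.27 and those of Lilrb3 -0.12. Of the Kupffer cell markers 6 of 6 found were above the limit of levels, at a mean of 6.92 to 7.35 in miR-143DOX and 7.07 to 7.16 in control. Of the neutrophil markers 1 of 5 was, at a list mean of 4.53 to 4.71 and 4.49 to 4.67. In miR-143DOX 5 of the 6 Kupffer cell markers were higher, with a list median of 0.09. So were 4 of the 5 neutrophil markers, with a list median of 0.03. No tested marker of these lists had an unadjusted p under 0.05. Their part in the result was not tested.

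Class I and II histocompatibility genes present peptides to T cells. H2-D1/H2-T18/H2-T3 stood at 5.46, 4.997 and 4.90 in miR-143DOX and at 5.76, 5.71 and 5.79 in control. The arrays did not overlap, and the difference was -0.64 (SE 0.16, 95% interval -0.99 to -0.28, unadjusted p = 0.00226, adjusted p = 0.9995). The 7 probe sets of H2-D1 alone gave -0.12 (SE 0.12), also without overlap, and the 1 of H2-T3 alone gave 0.01 (SE 0.27), with overlap. H2-DMb1/H2-DMb2, which encode a chain of the class II peptide exchanger, stood at 5.99, 6.04 and 5.99 in miR-143DOX and at 5.59, 5.85 and 5.55 in control. Its difference of 0.35 (SE 0.13, unadjusted p = 0.0259) went against the single probe set of H2-DMb1 alone, at 5.81, 5.65 and 5.70 against 6.44, 6.35 and 6.94, a difference of -0.86 (SE 0.17, unadjusted p = 0.000325). The 2 probe sets of H2-DMb2 alone gave 0.18 (SE 0.17). The group minus its genes' own value differed by 0.69 between the mice (SE 0.21, unadjusted p = 0.0131, adjusted p = 0.81). Of 14 H2- groups, 5 were higher and 9 lower.

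Immunoglobulin heavy chain groups pointed both ways. Igh-6/Ighv14-2, which names the mu chain and a variable segment, stood at 8.14, 8.70 and 8.37 in miR-143DOX and at 8.97, 8.80 and 9.28 in control, a difference of -0.61 (SE 0.18, unadjusted p = 0.00560). The 13 probe sets of Igh-6 alone gave 0.31 (SE 0.24). Igh/Igh-2 stood at 5.96, 5.09 and 5.75 against 4.87, 4.76 and 5.09, a difference of 0.69 (SE 0.21, unadjusted p = 0.00713). The lowest miR-143DOX value and the highest control value of the latter were both 5.09. Igh/Ighg1 gave 0.53 (SE 0.21) without overlap. Of the B and plasma cell markers, 1 of 4 found lay above the limit of levels, and the list stood at a mean of 4.43 to 4.62 in miR-143DOX and 4.39 to 4.52 in control. Their part in the result was not tested.

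The arrays also overlapped in 4 further groups of immune genes. Igl/Igl-V1, light chain genes, gave -0.17 (SE 0.15) and Igh/Igh-6 gave 0.27 (SE 0.19). Ly6a/Ly6c1/Ly6c2, surface proteins of blood cells, gave -0.12 (SE 0.13) and Defa21/Defa22, defensins of the gut, -0.06 (SE 0.13).

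Globin groups were set by 1 control array. Hba-a1/Hba-a2, the alpha globin genes of red cells, stood at 9.05, 8.90 and 8.75 in miR-143DOX and at 8.80, 8.06 and 10.36 in control. Hbb-b1/Hbb-b2, the beta globin genes, followed the same order of control arrays, at 8.81, 8.16 and 9.84, against 8.84, 8.85 and 8.47 in miR-143DOX. Of the erythroid markers 2 of 4 found lay above the limit of levels, at a list mean of 5.64 to 5.91 in miR-143DOX and 5.87 to 6.07 in control, and their part in the result was not tested. The list includes Hbb-b1 through its own probe sets, at 3.31 in miR-143DOX and 4.17 in control, below the limit. It is therefore not separate from the globin genes. The globin groups' differences of -0.18 (SE 0.43) and -0.22 (SE 0.33) became 0.47 and 0.24 without control array 3. In bulk RNA, fewer cells of a type and less RNA per cell cannot be told apart.

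Groups of copies with other roles filled much of the remaining list of small p. Gm5620/Tuba1b/Tuba1c, alpha tubulins of the cytoskeleton, stood at 10.46, 10.25 and 10.15 in miR-143DOX and at 9.82, 10.06 and 9.81 in control. The difference was 0.39 (SE 0.14, unadjusted p = 0.0190), without overlap. The own probe sets of Tuba1b gave 0.24 and those of Tuba1c 0.20. Cml3/Cml5, camello-like genes, had the lowest difference of the named groups, -1.14 (SE 0.26, 95% interval -1.71 to -0.57, unadjusted p = 0.00113, adjusted p = 0.9995). Its probe set stood at 7.17, 5.95 and 6.57 in miR-143DOX and at 7.88, 7.42 and 7.81 in control. The probe set of Cml5 alone gave -0.52 (SE 0.20, unadjusted p = 0.0260) and the 9 of Cml3 alone gave 0.10.

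Gprasp1/Gprasp2, sorting proteins of G protein-coupled receptors, gave 0.39 (SE 0.14, unadjusted p = 0.0149) as the mean of 5 probe sets that ran from -0.12 to 0.92. Their median over probe sets turned to -0.02. The Speer genes, a rodent family known from the testis, gave 0.56 (SE 0.14, unadjusted p = 0.00259) for 4930572O03Rik/5031410I06Rik/Gm1979/Gm5862/Gm7361/Gm9758/Speer4c/Speer4d/Speer4e. That probe set stood at 6.70, 6.41 and 6.27 in miR-143DOX and at 5.90, 5.89 and 5.92 in control. A second probe set, Gm1979/Gm5862/Speer4c/Speer4f, gave 0.57 (SE 0.21, unadjusted p = 0.0211), at 5.45, 5.42 and 5.22 in miR-143DOX and at 4.44, 5.34 and 4.59 in control, with overlap. Of 8 Speer groups tested, 5 were higher and 3 lower.

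Of the 20 groups named for the smallest p, 10 in each direction, 13 had 1 probe set. The genes of 7 of the 20 overlapped on the chromosome. Among all 1018 groups tested, 491 had 1 probe set and the genes of 304 overlapped. Copa encodes a coat protein of transport vesicles and Ncstn nicastrin, a part of gamma-secretase, on opposite strands. Copa/Ncstn stood at 7.24, 7.44 and 7.44 in miR-143DOX and at 8.25, 7.55 and 8.26 in control, a difference of -0.64 (SE 0.19, unadjusted p = 0.00655) without overlap. Copa alone gave 0.02, with overlap, and Ncstn alone -0.23, without overlap. Arfrp1/Zgpat, an Arf-related GTPase and a zinc finger protein, stood at 6.04, 5.37 and 4.75 in miR-143DOX and at 6.14, 6.17 and 6.82 in control. Its difference was -0.99 (SE 0.29, unadjusted p = 0.00613). Arfrp1 alone gave -0.25, without overlap, and Zgpat alone 0.07, with overlap.

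Card14/Sgsh, a signalling scaffold and the lysosomal sulfamidase, stood at 5.93, 6.09 and 5.76 in miR-143DOX and at 5.36, 5.52 and 4.29 in control. The difference was 0.87 (SE 0.27, unadjusted p = 0.00821), over 3 probe sets that ran from -0.12 to 1.70, and it was 0.49 without control array 3. Card14 alone gave -0.04 and Sgsh alone -0.05. Gm11992/Sunc1 gave 0.78 (SE 0.23, unadjusted p = 0.00635), and its brightest probe set gave -0.10. Gm10644/Lphn1, which names a latrophilin receptor, gave -0.42 (SE 0.13, unadjusted p = 0.00685), with Lphn1 alone at 0.10.

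Further groups joined genes that do not overlap. Gm14378/Map2k7, which names a kinase upstream of JNK, gave -0.67 (SE 0.15, unadjusted p = 0.00108) over 3 probe sets that ran from -1.56 to 0.19. It stood at 6.82, 6.95 and 6.78 in miR-143DOX and at 7.39, 7.37 and 7.82 in control. Map2k7 alone gave -0.21 (SE 0.13), also without overlap. A530032D15Rik/Arhgef12/Sp140 gave -0.69 (SE 0.20, unadjusted p = 0.00564), and -0.45 without miR-143DOX array 1. The 44 probe sets of Arhgef12 alone gave -0.0046, and the single one of A530032D15Rik alone gave 0.39 (SE 0.21). Chmp6/Sema3e, naming a membrane-remodelling protein and a semaphorin on different chromosomes, gave 0.74 (SE 0.22, unadjusted p = 0.00721), while Chmp6 alone gave -0.05. Gm7604/Snapc2 gave 0.48 (SE 0.16, unadjusted p = 0.0121), with Gm7604 alone at 0.35 (SE 0.31) and Snapc2 alone at 0.08.

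Whether shared probe sets moved as their genes' own probe sets did was tested over 845 groups for which at least 1 symbol had measured probe sets of its own. For each array the own value was subtracted from the shared value, and this gap was compared between the mice. No group passed 5% FDR in limma's test, 0.0% of 845, and 42 had an unadjusted p under 0.05, 4.97%. The smallest adjusted p was 0.81. The shared and own differences had the same sign in 476 of 845 groups (56.3%). Across groups their Pearson correlation was 0.17, as a description over groups that share the same 6 arrays and are not independent. It was 0.30 for 216 groups of genes within 1 Mb and 0.03 for 288 groups of overlapping genes. In the 135 groups of 1 name stem, 90 had the same sign (66.7%), compared with 133 of 244 groups (54.5%) with different names. The difference between these shares was not tested.

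The gaps with the smallest p belonged to 5 groups. EG436523/Gm10334/Prss1/Prss3/Try4, trypsin genes of the pancreas, stood at 6.65, 6.37 and 6.23 in miR-143DOX and at 6.64, 6.64 and 6.90 in control, a difference of -0.31. Its genes' own probe sets went from 0.21 (Gm10334) to 0.43 (Try4) among those above the limit of levels, which put the gap at -0.63 (SE 0.14, unadjusted p = 0.00295, adjusted p = 0.81). Afmid/Tk1 pairs an enzyme of tryptophan breakdown with thymidine kinase 1, which serves DNA synthesis. It stood at 7.33, 7.45 and 7.59 in miR-143DOX and at 7.52, 7.24 and 6.76 in control, a difference of 0.29 that was 0.08 without control array 3, while Tk1 alone gave -0.52 (SE 0.25) and Afmid alone -0.03. The gap was 0.56 (SE 0.14, unadjusted p = 0.00584, adjusted p = 0.81).

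Another was the receptor group Gm10693/Gm15448/Lilrb3/Pira2/Pira3, with a gap of 0.67 (SE 0.17). 1700067C01Rik/A230107C01Rik gave -0.0086 over 26 probe sets, while the 2 probe sets of A230107C01Rik alone gave 1.03 (SE 0.24), for a gap of -1.04 (SE 0.28). Fstl3/Prssl1, a follistatin-like inhibitor of activin and a serine protease, gave -0.59 (SE 0.19, unadjusted p = 0.00979). Fstl3 alone gave 0.17, and the gap was -0.76 (SE 0.20).

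The groups with the most probe sets mostly gave small differences. Gm13305/Gm2002/Il11ra1/Il11ra2, copies of the interleukin 11 receptor, stood at 7.32, 7.33 and 7.24 in miR-143DOX and at 7.08, 7.39 and 7.25 in control, a difference of 0.06 (SE 0.13) over 43 probe sets with 15 distinct rows. The single probe set of Il11ra1 alone gave -0.79 (SE 0.26). Srp54a/Srp54b/Srp54c, subunits of the signal recognition particle, gave 0.12 (SE 0.16) over 29. Ankhd1/Eif4ebp3, which names a translational repressor and the neighbour it can be spliced to, gave -0.25 (SE 0.16), with 25 of 31 probe sets lower. Cdan1/Ttbk2 gave -0.03 (SE 0.16) over 29 probe sets that ran from -0.93 to 1.36, and Amy2a1/Amy2a2/Amy2a5/Amy2b gave -0.06 (SE 0.17). A430089I19Rik/LOC665755 gave -0.04 (SE 0.13) over 45. Another 4 of the 10 largest groups lay below the limit of levels and were not tested, among them Xlr4a/Xlr4b/Xlr4c with 27 probe sets.

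For 181 groups no symbol had a probe set of its own, and 77 of these were tested. Of the 77, 42 were higher and 35 lower, with a median of 0.01, and 3 had an unadjusted p under 0.05, against 3.06% of all features. They were Cyp2a4/Cyp2a5, the Speer4 group above and Btg3/Gm7334. Btg3 encodes an antiproliferative protein, and its group stood at 6.34, 6.31 and 6.10 in miR-143DOX and at 6.48, 6.60 and 6.61 in control, a difference of -0.32 (SE 0.13) without overlap. Ftl1/Ftl2, the light chain of the iron store ferritin, stood at 12.38, 12.34 and 12.14 in miR-143DOX and at 12.22, 12.12 and 11.96 in control, a difference of 0.18 (SE 0.14). Amd1/Amd2, of polyamine synthesis, gave -0.10 (SE 0.16), Gm9786/Oaz1, the antizyme of the same pathway, 0.13 (SE 0.19), and Gm16379/Mif 0.15 (SE 0.17).

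Receptor families of the nose and of natural killer cells were mostly below the limit of levels. Of 93 groups of olfactory receptors (Olfr), 19 were tested, 7 higher and 12 lower. Of 49 groups of vomeronasal receptors (Vmn), 15 were tested, 3 higher and 12 lower, with a median of -0.21. The balance turned on single arrays: without control array 3, 7 of 13 Vmn groups were higher, and without control array 1, 0 of 20 were and the median was -0.61. Of 14 groups of natural killer cell receptors (Klr), 1 was tested, Klra13/Klra16/Klra23 at -0.10 (SE 0.20). Groups of defensins (6 of 13 tested) and of Speer genes (8 of 24) were also mostly below it, while those of kallikreins and keratins were mostly above. Of 5 kallikrein (Klk) groups 4 were tested, and of 4 groups of keratins or keratin-associated proteins (Krt) 3 were. All of these were higher and none had an unadjusted p under 0.05. Without miR-143DOX array 2, 3 of 4 Klk groups and 1 of 3 Krt groups were higher. Klk1b11/Klk1b21/Klk1b24/Klk1b27 gave 0.09 (SE 0.21). The single probe set of Klk1b21 alone gave -0.99 (SE 0.19, unadjusted p = 0.000252, adjusted p = 0.97), without overlap. Klk1b24 alone gave 0.27 (SE 0.18), with overlap, and Klk1b11 and Klk1b27 alone lay below the limit of levels.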

How the data were processed

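RNA of primary mouse hepatocytes was read on 6 Affymetrix arrays, 3 per group. The values the authors deposited are on a log2 scale by their range, 1.60 to 15.2, and the submitters' processing notes name Partek with no version. Their background correction, normalization and probe summary are not given in the sources used here, and no detection call was used.

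Array percentiles differed by up to 0.135, above the limit of 0.1, so quantile normalization was applied. A feature was the mean of its probe sets, either of 1 symbol or of 1 set of symbols, and the lowest 25% of 21943 features were left out. The 2 kinds of mice were contrasted by limma 3.58.1 (R 4.3.3) through lmFit and eBayes with no covariate, in a two-sided test, and p-values were adjusted by Benjamini and Hochberg over all 16457 features. Intervals are 95% intervals of the fit, and the number of arrays limits the precision (median moderated SD 0.184).

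Symbols are those of the platform annotation. Of 2623, 2052 were placed in RefSeq by symbol and 552 by an older symbol. Levels of different probe sets were set against each other only for the filter on dim features and to pick the brightest probe set. Groups were named by a rule. For each direction it takes the 10 groups of smallest unadjusted p, leaving aside groups of predicted names only. It adds the 10 with the most probe sets and the tested group with the most probe sets of each name stem on a fixed list. The 5 with the smallest p against own probe sets complete it. Some of these are given only by family counts or by changes of sign. Others, such as those of the Eif, Gbp and Pcdha stems, are not described. Groups outside this rule (other members of a family, small RNA pairs, groups without own probe sets) were chosen after their values were seen. The members, gene families and lists were chosen with earlier results of these data known. The steps were tested on simulated data.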

Additional observations from a re-analysis of the deposited data

How the results depend on the processing

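No group passed 5% FDR under any alternative, and 0 passed against own probe sets. The number of groups at an unadjusted p under 0.05, 67, was 106 with no filter on dim features, 43 with the lowest 50% left out, 40 with the median over probe sets, 20 with the brightest probe set and 117 with array weights. With single arrays left out it ran from 46 to 111, the latter without miR-143DOX replicate 3. As a share this was 4.51% to 10.9% of groups, while the share of all features ran from 1.99% to 7.27%. Except for the brightest probe set, whose shares are given above, the other alternatives are given as counts only. Against own probe sets the count of 42 was 73 with no filter and ran from 31 to 88 with single arrays left out, the latter also without miR-143DOX replicate 3. The median difference ran from -0.0281 to 0.0458 in the same way. Counting identical rows once, chosen after seeing the data, gave 68 and 42. With the deposited values and with arrays centred on medians the counts were 64 and 43. Same-numbered arrays of both groups deviated with correlations of 0.0936, 0.0445 and 0.274, and differently numbered ones from -0.238 to 0.148. These values do not settle whether the numbers pair animals, and the main fit did not take them as pairs. A replicate block gave 98 and 60, with 0 passing 5% FDR. The causes of these shifts were not tested beyond the fewer or more groups that each filter leaves.

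Of 1019 differences of 67 named groups under the alternatives, 952 kept their sign. With the median over probe sets the sign turned for Amy2a1/Amy2a2/Amy2a5/Amy2b (0.0768), Ces2/Ces5 (0.0306), Gprasp1/Gprasp2 (-0.0209), Igl/Igl-V1 (0.13) and Tgtp/Tgtp2 (-0.0282). With the brightest probe set the sign turned for 1300018J18Rik/Tubgcp6 (0.11), 1700067C01Rik/A230107C01Rik (0.20), 2810047C21Rik1/Zfp772 (-0.35), Amy2a1/Amy2a2/Amy2a5/Amy2b (0.21), Cdan1/Ttbk2 (0.60), Ces2/Ces5 (0.11), Cyp2c40/Cyp2c67/Cyp2c68/Cyp2c69 (0.0221), Cyp3a41a/Cyp3a41b (-0.26), EG665536/Ifitm1 (-0.0581), Gm11992/Sunc1 (-0.10), Hsp25-ps1/Hspb1 (0.023) and Ugt1a1/Ugt1a10/Ugt1a2/Ugt1a5/Ugt1a6a/Ugt1a6b/Ugt1a7c/Ugt1a9 (0.0644). With array weights the sign turned for A430089I19Rik/LOC665755 (0.0392), Ces2/Ces5 (0.0041), Hba-a1/Hba-a2 (0.22), Hbb-b1/Hbb-b2 (0.13), Hist1h2ad/Hist1h2af/Hist1h2ag/Hist1h2ah/Hist1h2ai/Hist1h2ak/Hist1h2an/Hist1h2ao (0.0317) and Klra13/Klra16/Klra23 (0.11). With single arrays left out, the differences that turned ran over 1300018J18Rik/Tubgcp6 -0.22 to 0.17, 1700067C01Rik/A230107C01Rik -0.0737 to 0.0417, 2810047C21Rik1/Zfp772 -0.0096 to 0.24, 5031410I06Rik/Gm10220/Gm10471/Gm1979/Gm7347/Gm7361/Speer4a/Speer4b -0.53 to 0.0745, A430089I19Rik/LOC665755 -0.11 to 0.008, Amy2a1/Amy2a2/Amy2a5/Amy2b -0.22 to 0.0848, Ccl19/LOC100043918/LOC100043921 -0.065 to 0.29, Cdan1/Ttbk2 -0.17 to 0.11, Ces2/Ces5 -0.0379 to 0.0051, Cyp3a41a/Cyp3a41b -0.13 to 0.45, Gm10164/Gm10268/Gm10362/Gm8062/Rpl17 -0.0335 to 0.0753, Gm11938/Krtap2-4 -0.0046 to 0.28, Gm13305/Gm2002/Il11ra1/Il11ra2 -0.018 to 0.13, Gm1420/Gm7202/Igk -0.0547 to 0.39, Hba-a1/Hba-a2 -0.68 to 0.47, Hbb-b1/Hbb-b2 -0.61 to 0.24, Hist1h2ad/Hist1h2af/Hist1h2ag/Hist1h2ah/Hist1h2ai/Hist1h2ak/Hist1h2an/Hist1h2ao -0.0699 to 0.056, Hsp25-ps1/Hspb1 -0.44 to 0.0741, Klk1b11/Klk1b21/Klk1b24/Klk1b27 -0.0848 to 0.34, Klra13/Klra16/Klra23 -0.26 to 0.0817, Olfr1217/Olfr1274/Olfr1506 -0.20 to 0.55, Serpina1a/Serpina1b/Serpina1c/Serpina1d/Serpina1e -0.066 to 0.11, Srp54a/Srp54b/Srp54c -0.0166 to 0.20, Tgtp/Tgtp2 -0.10 to 0.17 and Ugt1a1/Ugt1a10/Ugt1a2/Ugt1a5/Ugt1a6a/Ugt1a6b/Ugt1a7c/Ugt1a9 -0.12 to 0.0569. The cause was not tested. The signal over background of dim groups is not known, so small values near the limit of levels carry little weight.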

Other observations

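Some groups outside the naming rule were singled out after their values were seen. Nr1d1 encodes the clock repressor REV-ERB alpha and Thra a thyroid hormone receptor, and the ends of the genes overlap. Nr1d1/Thra stood at 9.97, 10.29 and 9.82 in miR-143DOX and at 9.57, 9.91 and 9.17 in control, a difference of 0.48 (SE 0.20, unadjusted p = 0.0342 by limma, adjusted p = 0.9995). The groups overlapped by 1 array on each side. Nr1d1 alone gave 0.33 and Thra alone 0.04. Tyms/Tyms-ps, thymidylate synthase and its pseudogene, stood at 6.08, 6.50 and 6.68 in miR-143DOX and at 6.88, 6.68 and 6.93 in control, a difference of -0.41 (SE 0.17), while Tyms alone gave -0.07. B4galnt1/Slc26a10 gave -0.77 (SE 0.24) without overlap, while B4galnt1 alone gave -0.09 and Slc26a10 alone 0.05. Selenbp1/Selenbp2, selenium-binding proteins, gave -0.37 (SE 0.19). Selenbp1 alone gave -0.67, at 10.14, 10.08 and 10.78 in miR-143DOX and at 11.38, 10.84 and 10.79 in control. Selenbp2 alone gave -1.06, at 9.91, 9.70 and 11.18 in miR-143DOX and at 11.78, 11.09 and 11.11 in control, with overlap.

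The lowest difference of any group tested came from 1 array. AI894139/Zfp783 stood at 9.44 in control array 1 and at 5.17 and 5.43 in the other control arrays, against 4.89, 5.36 and 6.07 in miR-143DOX, for a difference of -1.24 (SE 0.87). AI894139 alone gave -0.19 and Zfp783 alone 0.12.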
